A study of Mus musculus with 2 samples.

Results

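Transcripts of 9 chemoattractant receptors were followed in thymic regulatory T (Treg) lineage cells: Ccr9, Ccr4, Ccr8, Ccr6, Cxcr3, Cxcr4, Cxcr5, Cxcr6 and Gpr183. They were chosen by gene symbol, all 9 were present, and together they are 9 of the 32285 genes of the count matrix. Transcripts were counted by droplet 3' single-cell RNA sequencing, in which each captured mRNA molecule gives 1 unique molecular identifier (UMI) whatever its length. Levels are given as UMIs per 1000000 UMIs of the same cells (CPM), so that they can be set side by side between genes. The sorted cells were CD8-, CD4+, CD3e+ and surface CCR6-negative thymocytes that carried CD25 (the interleukin-2 receptor alpha chain, encoded by Il2ra), the Foxp3eGFP reporter, or both markers. CD8+ and CD11c+ cells had been depleted beforehand. The first group was 1 Lta-/- mouse on C57BL/6, which also carried the Foxp3eGFP reporter and lacked lymphotoxin alpha. The other was 1 C57BL/6 mouse with the Foxp3eGFP reporter and intact Lta. From each, 20000 cells were sorted and tagged with a genotype-specific antibody hashtag, and both were captured in 1 well. With 1 mouse per genotype there is no replicate, and no test or p-value is given. Intervals are exact 95% intervals that cover counting error alone.

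Chemokine receptors are G protein-coupled receptors that steer cells along gradients of secreted ligands. In the thymus, Ccr9 is the receptor for Ccl25, which thymic epithelium secretes. Ccr4 binds Ccl17 and Ccl22, Ccr8 binds Ccl1 and Ccl8, and Cxcr4 binds Cxcl12, the signal that holds immature thymocytes in the cortex. Ccr6 (ligand Ccl20), Cxcr3 (ligands Cxcl9 and Cxcl10), Cxcr5 (ligand Cxcl13) and Cxcr6 (ligand Cxcl16) are known mainly from activated, effector, innate-like and follicular T cells. Gpr183, also called EBI2, is a receptor for oxysterols, hydroxylated forms of cholesterol that guide lymphocytes within lymphoid tissue.

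The matrix held 4798 barcodes, shared by the mRNA and hashtag libraries, and 4638 passed a minimum of 500 detected genes and a mitochondrial share no higher than 10%. The hashtags placed 2244 cells in the Lta-/- mouse (14054827 UMIs, median 5395 per cell) and 2209 in the Foxp3eGFP mouse (15010916 UMIs, median 5547). Both hashtags were present in 185 cells, which were left out. Lta itself had 72 UMIs (5.12 CPM) in Lta-/- cells, against 509 (33.9 CPM) in Foxp3eGFP cells, a log2 ratio of -2.73 (95% interval -3.10 to -2.37). Cd3e, a subunit of the T cell receptor complex, had a UMI in 95.1% of the cells and Cd4 in 59.4%, and Cd8a had one in 2.72%. Foxp3 had a UMI in 19.9% of the cells and Il2ra in 21.9%, so a cell without either transcript may still carry the protein it was sorted on. At least 2 genes of a marker list of another lineage were present in 606 cells (13.6%), which held 18.1% of all UMIs. They numbered 332 (14.8%) in Lta-/- cells and 274 (12.4%) in Foxp3eGFP cells, and the lists found were double-positive thymocyte (302 cells), B or plasma (145), stromal (106), gamma-delta T (73), myeloid or dendritic (64) and NK or ILC (40).

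The promoters of 4 members are shown because the results below turn on them: Cxcr3 and Cxcr6, which shared cells, and Ccr9 and Gpr183, the most abundant members, which marked different states. Each is the 250 bases before the annotated transcription start, from RefSeq (GRCm38.p6), 5′ to 3′ on the strand of the gene. Capitals mark matches on either strand to the E-box CANNTG, the Runx core TGTGGT, the T-box core GTGTGA or the AP-1 element TGANTCA. Of 32851 promoters of this length, 66.2% held the E-box, 14.0% the Runx core, 12.3% the T-box core and 6.75% the AP-1 element. The Cxcr3 window spans chrX:101734148-101734397 (minus strand), that of Cxcr6 chr9:123806227-123806476 (plus strand), that of Ccr9 chr9:123766961-123767210 (plus strand) and that of Gpr183 chr14:121965194-121965443 (minus strand).
Cxcr3: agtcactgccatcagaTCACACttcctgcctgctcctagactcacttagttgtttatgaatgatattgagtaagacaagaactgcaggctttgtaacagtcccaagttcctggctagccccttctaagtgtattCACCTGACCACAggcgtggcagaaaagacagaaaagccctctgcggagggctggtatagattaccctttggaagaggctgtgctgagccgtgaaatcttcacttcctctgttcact
Cxcr6: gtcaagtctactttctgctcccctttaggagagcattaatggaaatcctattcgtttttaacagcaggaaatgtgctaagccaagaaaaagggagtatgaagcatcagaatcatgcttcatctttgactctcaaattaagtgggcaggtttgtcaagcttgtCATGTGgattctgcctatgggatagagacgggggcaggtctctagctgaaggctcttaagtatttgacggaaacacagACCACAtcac
Ccr9: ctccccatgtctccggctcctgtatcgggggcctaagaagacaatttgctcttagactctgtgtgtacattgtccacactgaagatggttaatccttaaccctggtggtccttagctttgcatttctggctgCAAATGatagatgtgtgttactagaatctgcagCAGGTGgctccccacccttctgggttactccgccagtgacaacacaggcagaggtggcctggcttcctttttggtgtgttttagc
Gpr183: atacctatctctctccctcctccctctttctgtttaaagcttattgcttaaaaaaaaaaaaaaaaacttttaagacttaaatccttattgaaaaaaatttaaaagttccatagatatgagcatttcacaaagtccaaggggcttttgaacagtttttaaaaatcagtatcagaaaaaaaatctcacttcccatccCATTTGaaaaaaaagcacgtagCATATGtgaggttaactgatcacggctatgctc

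Counting back from the start (-1 is the last base before it), the Cxcr3 window held an E-box with its first base at -116, directly followed by a Runx core at -110 and preceded by a T-box core at -234. The Cxcr6 window held an E-box at -88 and a Runx core at -10. The Ccr9 window held E-boxes at -118 and -85, and the Gpr183 window held E-boxes at -55 and -33. No AP-1 element was found in any of the 4 windows, nor was the NBRE element AAAGGTCA, the monomer site of Nr4a factors, which 1.34% of all promoters held. These matches describe the letters alone. Promoters were matched for 8 of the 9 members.

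Of the members, 5 lie on mouse chromosome 9. Ccr9 (chr9:123767211-123783457) and Cxcr6 (chr9:123806477-123811754) are neighbours in one receptor cluster, 23.0 kb apart. Ccr4 (chr9:114490316-114505476), Ccr8 (chr9:120092133-120094906) and Cxcr5 (chr9:44511787-44526444) lie elsewhere on it. The others are Ccr6 (chr17:8236041-8258519), Cxcr3 (chrX:101731535-101734147), Cxcr4 (chr1:128588199-128592299) and Gpr183 (chr14:121952331-121965193), all in GRCm38.p6.

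Ccr9 and Gpr183 dominated the receptor transcripts. Ccr9 had 2958 UMIs (101.8 CPM) and was present in 24.4% of cells, and Gpr183 had 2825 UMIs (97.2 CPM) in 26.3% of cells. The other members were present in under 6% of cells each: Cxcr4 in 5.66% (12.2 CPM), Ccr4 in 4.33% (8.53 CPM), Ccr8 in 4.15% (7.23 CPM), Cxcr3 in 3.48% (10.8 CPM), Ccr6 in 2.36% (4.47 CPM), Cxcr6 in 2.29% (8.09 CPM) and Cxcr5 in 0.966% (48 UMIs, 1.65 CPM). Ccr7, the receptor for Ccl19 and Ccl21 and no member here, had 7495 UMIs in 65.5% of cells. The order of the members was therefore set by a pair near 100 CPM and 7 members at or below 12.2 CPM. The counting intervals of neighbours overlapped for Ccr9 (98.1 to 105.5 CPM) and Gpr183 (93.6 to 100.8 CPM), and for Cxcr4 (10.9 to 13.5 CPM) and Cxcr3 (9.64 to 12.1 CPM). Those of Ccr4, Cxcr6 and Ccr8 also overlapped each other.

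The members also differed in how their UMIs were spread over the cells that had any. At least 2 UMIs were found in 55.9% of Cxcr6-positive cells, 55.5% of Cxcr3-positive cells, 54.8% of Ccr9-positive cells and 50.2% of Gpr183-positive cells. The same share was 25.8% for Cxcr4, 18.1% for Ccr4, 17.1% for Ccr6, 11.9% for Ccr8 and 6.98% for Cxcr5. Cxcr3 and Cxcr6 were found in few cells but often at several UMIs, whereas Ccr8 and Ccr4 transcripts came mostly as single UMIs. After each cell was thinned to 3000 UMIs, which leaves 4144 cells of equal depth, Ccr9 was present in 17.1% and Gpr183 in 17.9% of cells. The others were present in between 0.483% (Cxcr5) and 2.44% (Ccr4) of cells.

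Ccr9 was lowest where Foxp3 or Il2ra transcripts were present, Gpr183 was highest in cells with Il2ra but no Foxp3, and Ccr6 was higher in all 3 transcript-positive classes. Cells were classed by UMIs of both transcripts: both (390 cells, 8.76%), Foxp3 only (497, 11.2%), Il2ra only (584, 13.1%) and neither (2982, 67.0%). The median UMIs per cell were 5636.5, 4644, 5841.5 and 5517.5 in that order. A member was called higher or lower at 1.5-fold or more, provided that the classes compared held 50 UMIs of it together. By that rule 17 of the 27 ratios over neither were called. The share of all genes called was 21.8% for both over neither (7.47% higher, 14.3% lower), 21.5% for Foxp3 only over neither (7.41% higher, 14.1% lower) and 15.1% for Il2ra only over neither (6.27% higher, 8.88% lower).

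In Lta-/- cells Ccr9 had 36.6 CPM in cells with both transcripts, 39.4 in Foxp3 only cells, 40.3 in Il2ra only cells and 143.5 in cells with neither. In Foxp3eGFP cells it had 33.2, 53.9, 70.8 and 109.4 CPM in the same classes. In both mice the cells with neither transcript held the most Ccr9 and the cells with both the least. Over both mice, the log2 ratio to neither was -1.87 (-2.19 to -1.56) for both, -1.44 (-1.71 to -1.18) for Foxp3 only and -1.13 (-1.33 to -0.93) for Il2ra only. Seen from the receptor, Foxp3 had a UMI in 11.2% of Ccr9-positive cells against 22.7% of Ccr9-negative cells, and Il2ra in 13.6% against 24.5%.

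Gpr183 had 51.7 CPM in cells with both transcripts, 40.2 in Foxp3 only, 159.4 in Il2ra only and 85.7 in neither in Lta-/- cells. In Foxp3eGFP cells the same classes had 102.4, 48.7, 208.8 and 90.7 CPM. Il2ra only cells were the highest and Foxp3 only cells the lowest class in each mouse. Il2ra only cells exceeded Foxp3 only cells by 2.08 on the log2 scale (1.80 to 2.37), where 20.3% of all genes were called (12.5% higher, 7.75% lower), and exceeded neither by 1.09 (0.97 to 1.22). Cells with both transcripts differed from neither by -0.73 in Lta-/- cells and by 0.18 in Foxp3eGFP cells, so that the mice did not share a direction.

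Ccr6 was low in all classes, and the sort had kept only cells without surface CCR6, so its transcripts are those of cells that passed that gate. It had 7.09 CPM in cells with both transcripts (18 UMIs), 8.98 in Foxp3 only (24 UMIs), 8.55 in Il2ra only (34 UMIs) and 2.72 in neither (54 UMIs). The log2 ratios to neither were 1.38 (0.53 to 2.18), 1.72 (0.97 to 2.44) and 1.65 (0.99 to 2.30). Each mouse showed the same order against neither, with 8.45, 10.6 and 10.1 against 2.20 CPM in Lta-/- cells and 6.11, 7.38 and 7.43 against 3.23 CPM in Foxp3eGFP cells. Il2ra had a UMI in 41.9% of Ccr6-positive cells against 21.4% of Ccr6-negative cells.

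Ccr8 and Ccr4, usually named as receptors of Treg cells, were lower in cells with both transcripts than in cells with neither. Ccr8 had 2.36 CPM (6 UMIs) in both, 2.99 (8 UMIs) in Foxp3 only, 10.1 (40 UMIs) in Il2ra only and 7.85 (156 UMIs) in neither. Its ratios to neither were -1.73 (-3.20 to -0.58) and -1.39 (-2.63 to -0.38) in the Foxp3-bearing classes and 0.36 in Il2ra only. Ccr4 had 2.36 CPM (6 UMIs) in both, 7.85 in Foxp3 only, 8.80 in Il2ra only and 9.36 in neither, and it passed the call for both over neither alone (-1.99, -3.45 to -0.84).

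Cxcr3 was higher in Foxp3 only cells than in the other classes. It had 5.12 CPM in both (13 UMIs), 19.1 in Foxp3 only (51 UMIs), 5.78 in Il2ra only (23 UMIs) and 11.4 in neither (227 UMIs). Foxp3 only over neither was 0.74 (0.27 to 1.18) over both mice, 0.18 in Lta-/- cells and 1.56 in Foxp3eGFP cells. The mice held similar Cxcr3 in Foxp3 only cells (18.2 CPM in Lta-/-, 19.9 CPM in Foxp3eGFP) and differed in neither cells (16.0 CPM in Lta-/-, 6.77 CPM in Foxp3eGFP). Cxcr6 was lower in both (3.15 CPM) and in Foxp3 only (2.62 CPM) than in neither (9.71 CPM), and Cxcr4 was lower in both (4.33 CPM against 12.7 CPM). Cxcr5 had 48 UMIs, with 6, 8, 8 and 26 in both, Foxp3 only, Il2ra only and neither, too few for a call. Its ratios to neither were 0.85, 1.19 and 0.62, with intervals that hold 0.

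**Figure D1:**
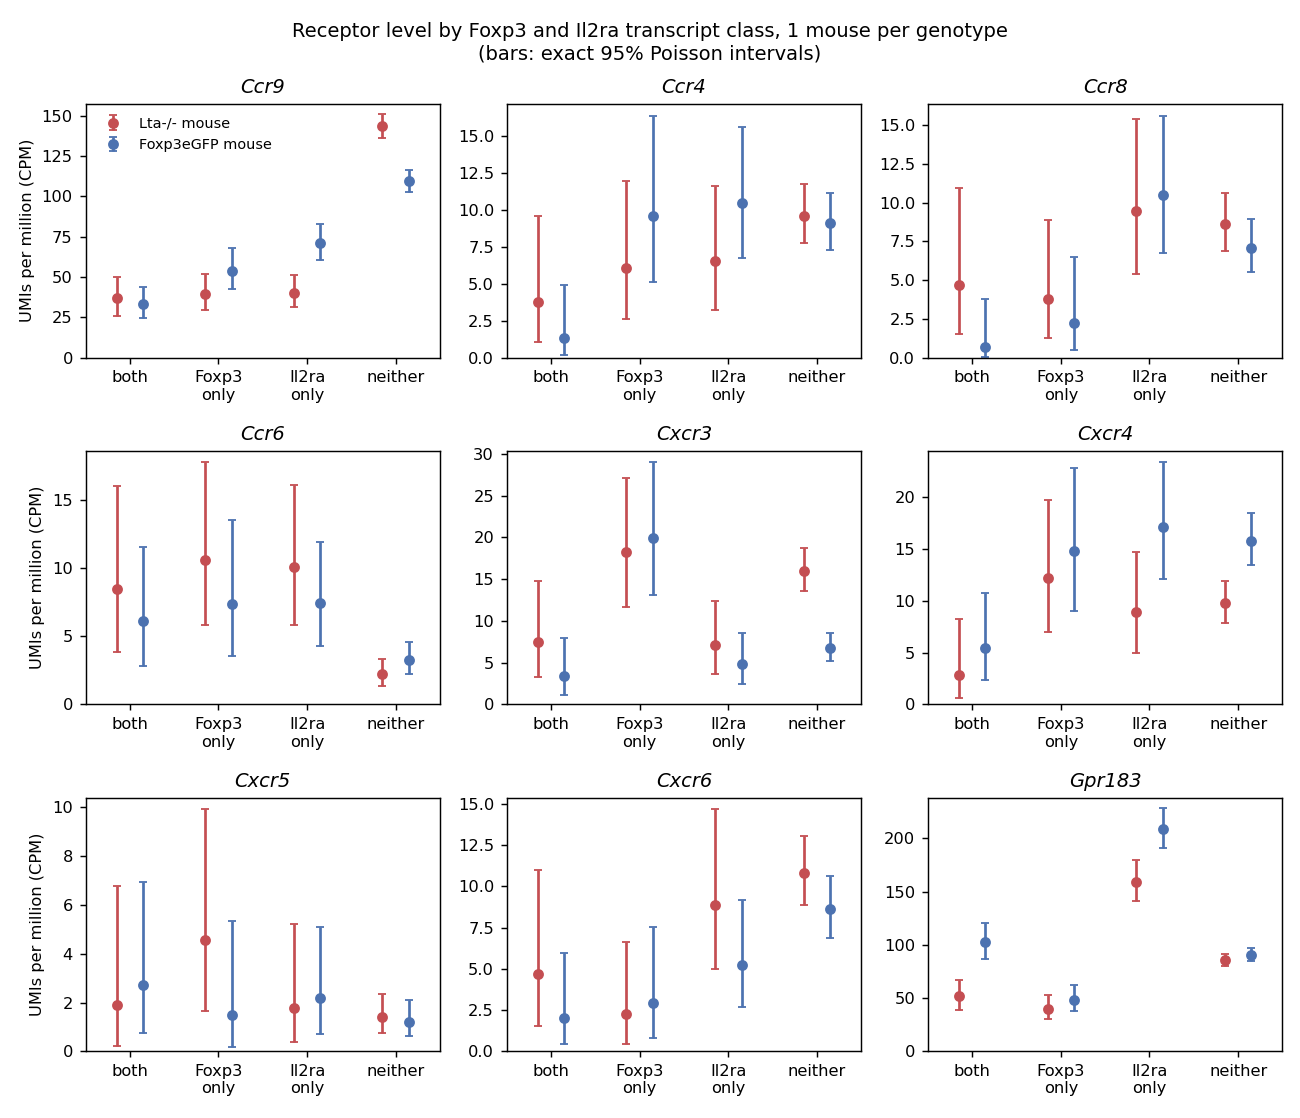
Level of each receptor (CPM) in cells with both transcripts, Foxp3 only, Il2ra only and neither, in Lta-/- cells (red) and Foxp3eGFP cells (blue), with exact 95% Poisson intervals. Ccr9 is highest in neither, Gpr183 in Il2ra only at 159.4 and 208.8 CPM, and Ccr6 lowest in neither in both mice.

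For each of the 9 receptors, some state marker lists differed between cells with and without it, and some receptors shared high lists. For each, the CPM of state marker genes in cells with at least 1 UMI of the receptor was set against cells without it. All ratios in the following paragraphs are log2 ratios of positive over negative cells, and a gene counts as higher or lower at 1.5-fold with at least 50 UMIs. Positive cells were deeper than negative ones for most members, so the value after thinning is given where it differs in direction. The share of all genes past the call was 10.5% for Ccr9, 11.3% for Gpr183, 17.5% for Ccr8, 20.1% for Ccr4, 28.2% for Ccr6, 30.2% for Cxcr3, 32.7% for Cxcr6, 22.5% for Cxcr4 and 36.2% for Cxcr5. It was larger for the members with few positive cells than for Ccr9 and Gpr183. Where positive cells hold few UMIs, counting error can put a gene past 1.5-fold, and its part in these shares was not tested. For Cxcr5 the share was 18.3% higher and 18% lower.

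**Figure D2:**
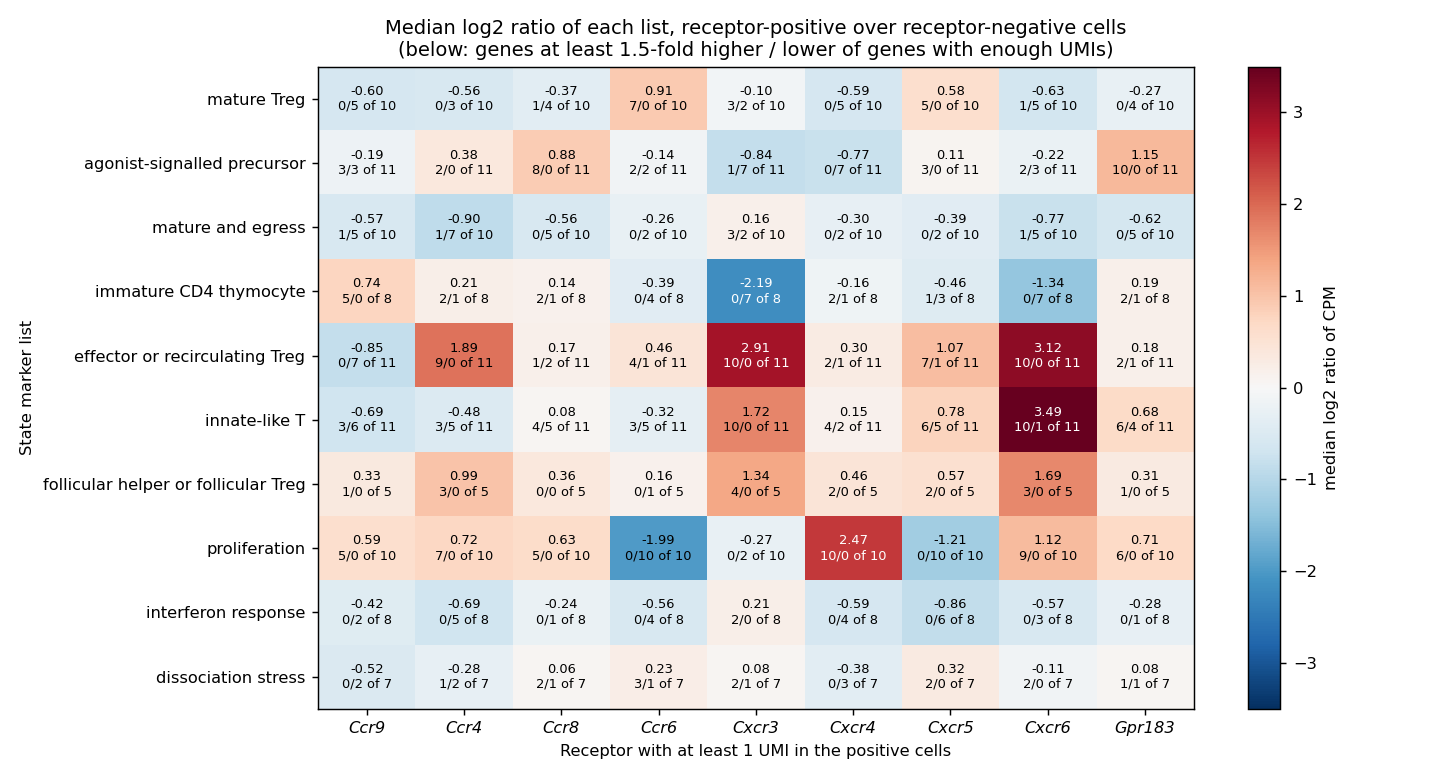
Median log2 ratio of each state marker list (down the page) in receptor-positive over receptor-negative cells for the 9 receptors (across), with the number of genes higher and lower among those with enough UMIs. Gpr183 and Ccr8 share high agonist-signalled genes (medians 1.15 and 0.88), and Cxcr3 and Cxcr6 share high effector genes (2.91 and 3.12).

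Ccr9-positive cells (1085) carried immature thymocyte genes. Of 8 genes of the immature CD4 thymocyte list, 5 were higher and 0 lower, with a median of 0.74 beside 0.09 for all genes, of which 6.19% were higher and 4.31% lower. Itm2a (1.32), Satb1 (1.15), the chromatin organiser of developing thymocytes, Cd24a (0.90), which is lost on maturation, and Tox (0.59) were among them. S1pr1, the receptor for exit to the blood, was lower (-0.98), as was Ms4a4b (-1.01), and 5 of 10 genes of the mature and egress list were lower. In the mature Treg list 5 of 10 genes were lower and 0 higher, among them Ctla4 (-0.82) and Nrp1 (-1.63). Of the effector list 7 of 11 genes were lower, among them Maf (-1.84).

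At equal depth, Ccr9 was present in 21.5% of cells with a Satb1 UMI against 5.03% of cells without one. It was present in 9.76% of cells with S1pr1 against 22.3% without, and in 49.2% (31 of 63) of cells with Cd8a against 16.6% without. The genes that set Ccr9-positive cells apart most in both mice were Chl1, an adhesion molecule, with a UMI in 20.3% of positive against 4.39% of negative cells, and Lztfl1, in 57.6% against 26.1%. Lztfl1 lies on the same chromosome, 49.6 kb from Ccr9 (chr9:123694404-123717625). Id2 (1.62), Nedd4 (1.60) and Ckb (1.35) followed, and H2-Q6 (-2.20), Rflnb (-2.05), Hopx (-1.77) and Pglyrp1 (-1.76) were the lowest. Genes of the double-positive thymocyte list were also higher in 6 of 7 cases (median 1.12), and their summed level was 193.9 CPM in Ccr9-positive against 102.8 CPM in Ccr9-negative cells. The B or plasma list (3 of 7 genes higher, 1 lower) summed to 731.1 against 326.0 CPM, at 1301 against 535.0 CPM in the Foxp3eGFP mouse and 84.8 against 107.8 CPM in the Lta-/- mouse. The double-positive list marked 11.5% of positive and 5.26% of negative cells, and without all cells that carried other-lineage genes the immature list had a median of 0.76. The proliferation list was 0.59 in all UMIs and -0.56 at equal depth.

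Gpr183-positive cells (1173) carried genes that a T cell receptor signal induces. In the agonist-signalled list 10 of 11 genes were higher and 0 lower, with a median of 1.15 beside 0.02 for all genes, of which 6.54% were higher and 4.72% lower. The median was 0.92 in Lta-/- cells and 1.27 in Foxp3eGFP cells. Gadd45b (2.24), Nfkbid (1.60), the orphan nuclear receptors Nr4a3 (1.55) and Nr4a1 (1.17), Tnfrsf9 (1.19), which encodes 4-1BB, and Egr3 (1.03) were among them. Gadd45b was present in 24.5% of positive and 7.41% of negative cells. S1pr1 (-0.99) and Klf3 (-1.06) were lower, with 5 of 10 genes of the egress list lower. Foxp3 (-1.14) and Ctla4 (-1.18) were lower too.

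At equal depth, Gpr183 was present in 33.6% of cells with Nr4a1 against 16.3% without, and in 26.6% of cells with Tnfrsf9 against 15.0% without. The share was 11.5% of cells with S1pr1 against 22.4% without, and 8.73% of cells with Foxp3 against 19.3% without. Lad1 (2.36), Trib1 (1.90), Mir155hg (1.83), the host transcript of miR-155, and Bcl2a1d (1.77) led the genes higher in both mice. All 7 B or plasma genes with enough UMIs were lower (median -3.68), and that list summed to 57.0 CPM in Gpr183-positive against 608.4 CPM in Gpr183-negative cells, at 68.4 against 114.5 CPM in the Lta-/- mouse and 48.5 against 1120 CPM in the Foxp3eGFP mouse. The summed myeloid list was 208.4 CPM in Gpr183-positive against 167.9 CPM in Gpr183-negative cells. The part of these lists in the Gpr183 values was not tested, and without other-lineage cells the agonist-signalled median was 1.16.

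Ccr8-positive cells (185) resembled Gpr183-positive cells in this list: 8 of 11 agonist-signalled genes were higher and 0 lower, with a median of 0.88, and 1.36 at equal depth, beside 7.5% of all genes higher and 10% lower. Of the Ccr8-positive cells 49.7% also carried Gpr183. Nr4a3 (1.69), Gadd45b (1.67), Nr4a1 (1.52) and Tnfrsf9 (1.08) were higher. Of the mature Treg list, 1 of 10 genes was higher, Tnfrsf4 (0.60), which encodes OX40, and 4 were lower, with a median of -0.37. Cd40lg, the helper ligand of activated CD4 T cells, was present in 47.0% of positive and 21.1% of negative cells. S1pr1 was lower (-1.50), as were 5 of 10 egress genes in all. Foxp3 was lower (-2.31), and Rgs1, a brake on chemokine receptor signalling, was present in 5.95% of positive against 20.4% of negative cells. At equal depth Ccr8 was present in 3.84% of cells with Tnfrsf9 against 1.19% without. Among cells with a Foxp3 UMI it was present in 0.178% (1 of 561), against 2.12% of cells without one. In the Lta-/- mouse the summed myeloid list was 328.0 CPM in Ccr8-positive and 162.6 CPM in Ccr8-negative cells, and in the Foxp3eGFP mouse it was 132.2 and 191.5 CPM. Its part in the Ccr8 values was not tested, and without other-lineage cells the agonist-signalled median was 0.89.

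Ccr6-positive cells (105) carried more of the mature Treg genes. Of 10 genes, 7 were higher and 0 lower, with a median of 0.91 beside -0.07 for all genes, of which 10.4% were higher and 17.8% lower. The median was 0.97 in Lta-/- and 0.85 in Foxp3eGFP cells. Nrp1 (1.77), which marks thymus-derived Treg cells, Tnfrsf4 (1.37), Ikzf2 (1.05), which encodes Helios, Tnfrsf18 (0.98), which encodes GITR, Ctla4 (0.93) and Lrrc32 (0.89), which encodes the TGF-β carrier GARP, were higher. Nrp1 was present in 40.0% of positive and 13.5% of negative cells. Hopx was present in 55.2% against 19.4%, and Plagl1 (2.40), Tmem158 (2.33), Sdc4 (1.96) and Nrp2 (1.89) were also higher. Rora (1.10), a factor of type 17 cells, was the 1 gene of that list with enough UMIs. All 10 proliferation genes were lower, with a median of -1.99 and -1.88 at equal depth, and Satb1 was lower (-1.37). Ccr6-positive cells therefore held more Treg transcripts and fewer transcripts of dividing cells than the rest. At equal depth Ccr6 was present in 3.04% of cells with Ctla4 against 1.01% without and in 2.76% with Il2ra against 1.01% without. The NK or ILC list had 0 UMIs in the 105 Ccr6-positive cells for all 7 genes, but it marked only 0.920% of negative cells. In Ccr6-positive cells 9 of 10 myeloid genes were at 0, while the summed myeloid list was 110.2 CPM against 182.5 CPM in negative cells.

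Ccr4-positive cells (193) were lower in egress genes and higher in effector genes. Of 11 genes of the effector or recirculating Treg list, 9 were higher and 0 lower, beside 8.58% of all genes higher and 11.5% lower. The median was 1.89, and 1.05 in Lta-/- and 1.98 in Foxp3eGFP cells. Maf (2.47), S100a4 (2.42), S100a6 (2.38), Itgae (2.05), which encodes the CD103 chain, Il1rl1 (2.03), which encodes the IL-33 receptor, and Icos (1.59) were higher. These effector genes were higher in both mice, and Icos was present in 54.9% of positive and 31.9% of negative cells. In the egress list 7 of 10 genes were lower and 1, Il7r (1.10), higher. S1pr1 (-1.72), Foxp3 (-1.80) and Il2ra (-1.43) were lower. Zbtb16, which encodes PLZF, the factor of innate-like T cells, was 4.95 higher but present in only 8.81% of positive cells. The innate-like T list as a whole went the other way, with 3 of 11 genes higher, 5 lower and a median of -0.48. The gamma-delta T list summed to 108.9 CPM in positive against 54.3 CPM in negative cells, and without other-lineage cells the effector median was 1.39.

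Cxcr3-positive (155) and Cxcr6-positive (102) cells carried effector and innate-like genes, and few of the immature thymocyte genes. In Cxcr3-positive cells 10 of 11 effector genes were higher (median 2.91), 10 of 11 innate-like T genes were higher (median 1.72) and 7 of 8 immature genes were lower (median -2.19), beside 12.9% of all genes higher and 17.2% lower. In Cxcr6-positive cells 10 of 11 effector genes (median 3.12) and 10 of 11 innate-like T genes (median 3.49) were higher, and 7 of 8 immature genes were lower (median -1.34), beside 12.2% of all genes higher and 20.5% lower. Maf was present in 56.1% of Cxcr3-positive cells against 4.58% of negative cells. S100a6 was present in 62.7% of Cxcr6-positive cells against 5.45%, and Ccr2, an inflammatory chemokine receptor, in 40.2% against 1.31%.

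Each of these receptors is set here against its own negative cells, and the difference between Cxcr3-positive and Cxcr6-positive cells, which shared 32 cells, was not tested. In Cxcr3-positive cells Klrd1 (5.62), Ccl5 (5.06), Lag3 (4.42), Ly6c2 (4.30), Serpina3g (4.22), Itgae (3.65) and Nkg7 (3.52) were higher. Nrp1 was present in 47.1% of Cxcr3-positive cells against 13.0% of negative cells, and Foxp3 differed by -0.23 (-0.71 to 0.20), not a call. The mature Treg list as a whole hardly moved, with 3 of 10 genes higher and 2 lower. Its median was -0.10, beside -0.06 for all genes. In Cxcr6-positive cells Zbtb16 (5.69), Klrd1 (4.95), Rbpms (4.68), Ccr2 (4.28), Il1rl1 (4.11), Xcl1 (3.74) and Id2 (2.58) were higher, and Foxp3 was lower (-2.46). Satb1 and Sox4 were lower in Cxcr3-positive cells, at log2 ratios of -2.67 and -3.57, and Nr4a1 (-2.40) and Tnfrsf9 (-1.90) were lower, with 7 of 11 agonist-signalled genes lower. At equal depth Cxcr3 was present in 0.265% of cells with Nr4a1 against 2.60% without, and in 21.6% of cells with Nkg7 against 1.75% without.

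Other-lineage genes moved with both receptors. Cells with such genes held 39.6% of Cxcr6 UMIs and 23.6% of Cxcr3 UMIs, beside 18.1% of all UMIs. The NK or ILC list summed to 341.7 CPM in Cxcr3-positive and 22.3 CPM in Cxcr3-negative cells, at 508.5 CPM in Lta-/- and 100.7 CPM in Foxp3eGFP positive cells, with Klra4 and Klra8 at 0. With Cxcr3 the myeloid list also moved, at 367.4 against 174.1 CPM (6 of 7 genes higher), and the gamma-delta T list, at 157.5 against 54.1 CPM (4 of 5 higher). With Cxcr6 the NK or ILC list was at 156.6 against 28.0 CPM (2 of 3 higher). The gamma-delta T list summed to 293.7 CPM in Cxcr6-positive and 48.0 CPM in Cxcr6-negative cells, and it marked 15.7% of Cxcr6-positive cells. Summed over both mice, the B or plasma list was not higher, at 389.1 against 437.8 CPM for Cxcr3 and 113.3 against 449.2 CPM for Cxcr6. In the Lta-/- mouse it was higher with Cxcr3 (456.3 against 86.6 CPM) and at 115.6 against 101.2 CPM for Cxcr6. In the Foxp3eGFP mouse it was at 291.9 against 761.7 CPM for Cxcr3 and 111.2 against 776.3 CPM for Cxcr6. The list marked 8.39% of Cxcr3-positive against 3.07% of negative cells, and 7.84% against 3.15% for Cxcr6. Without all cells that carried other-lineage genes the effector median was 3.34 for Cxcr3 and 2.99 for Cxcr6, and the innate-like median was 3.00 and 4.43.

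Cxcr4-positive cells (252) carried proliferation genes. All 10 were higher, with a median of 2.47, of 2.11 at equal depth, of 2.91 in Lta-/- and 2.17 in Foxp3eGFP cells, beside 10.8% of all genes higher and 11.7% lower. The list was thus high in each mouse and at equal depth. Mki67 was present in 42.9% of positive against 6.74% of negative cells, and Rrm2 (2.74) and Top2a (2.48) were higher as well. At equal depth Cxcr4 was present in 7.88% of cells with Mki67 against 1.77% without. Of 7 double-positive thymocyte genes with enough UMIs 4 were higher, Rag1 (4.84), Ptcra (3.41), Dntt (3.05) and Ly6d (3.02), 1 was lower, Cd1d1 (-0.77), and Cd8a (0.24) and Cd8b1 (0.075) were not called. Arpp21 (3.50), of the immature CD4 thymocyte list, was also higher, but that list had 2 of 8 genes higher, 1 lower and a median of -0.16. Of the agonist-signalled genes, 7 of 11 were lower. Cxcr4-positive cells were the deepest of all members, at a median of 9688 UMIs against 5396. Cells with other-lineage genes held 31.9% of Cxcr4 UMIs, and the double-positive list summed to 340.8 CPM in positive against 104.2 CPM in negative cells. The gamma-delta T list summed to 198.5 against 42.2 CPM (5 of 5 genes higher), the myeloid list to 262.0 against 172 CPM (5 of 7 higher, 1 lower) and the B or plasma list to 99.8 against 473.0 CPM (0 of 7 higher, 5 lower). By mouse, the B or plasma list was at 120.1 against 100.4 CPM in Lta-/- and 89.0 against 843.5 CPM in Foxp3eGFP cells. It marked 7.14% of positive and 3.02% of negative cells. Without cells that carried other-lineage genes the proliferation median was 2.52.

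Cxcr5-positive cells numbered 43, and their values rest on few UMIs. Foxp3 and Il2ra were each present in 32.6% of them (14 of 43), against 19.8% and 21.8% of Cxcr5-negative cells. Mature Treg genes were higher in 5 of 10 cases and lower in 0, beside 18.3% of all genes higher and 18% lower, with Nrp1 (2.06), Ctla4 (0.96) and Tnfrsf4 (0.65) among them. The median of that list was 0.58, short of 1.5-fold. Other lists moved further. Effector genes were higher in 7 of 11 cases and lower in 1 (median 1.07), and innate-like T genes higher in 6 and lower in 5 (0.78). All 10 proliferation genes (-1.21) and 6 of 8 interferon response genes (-0.86) were lower. Nrp1 was present in 46.5% of positive and 13.8% of negative cells, and in both mice it was higher (2.21 in Lta-/-, 1.80 in Foxp3eGFP). Tox2 (2.80), a factor of follicular helper cells, was higher, whereas Bcl6, the defining follicular factor, had 8 UMIs in these cells (0.57, -0.65 to 1.57). Plagl1 (3.51), Serpina3g (2.97), Pear1 (2.73), Fam124b (2.47) and Sntb1 (2.34) were the other leading genes.

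**Figure D3:**
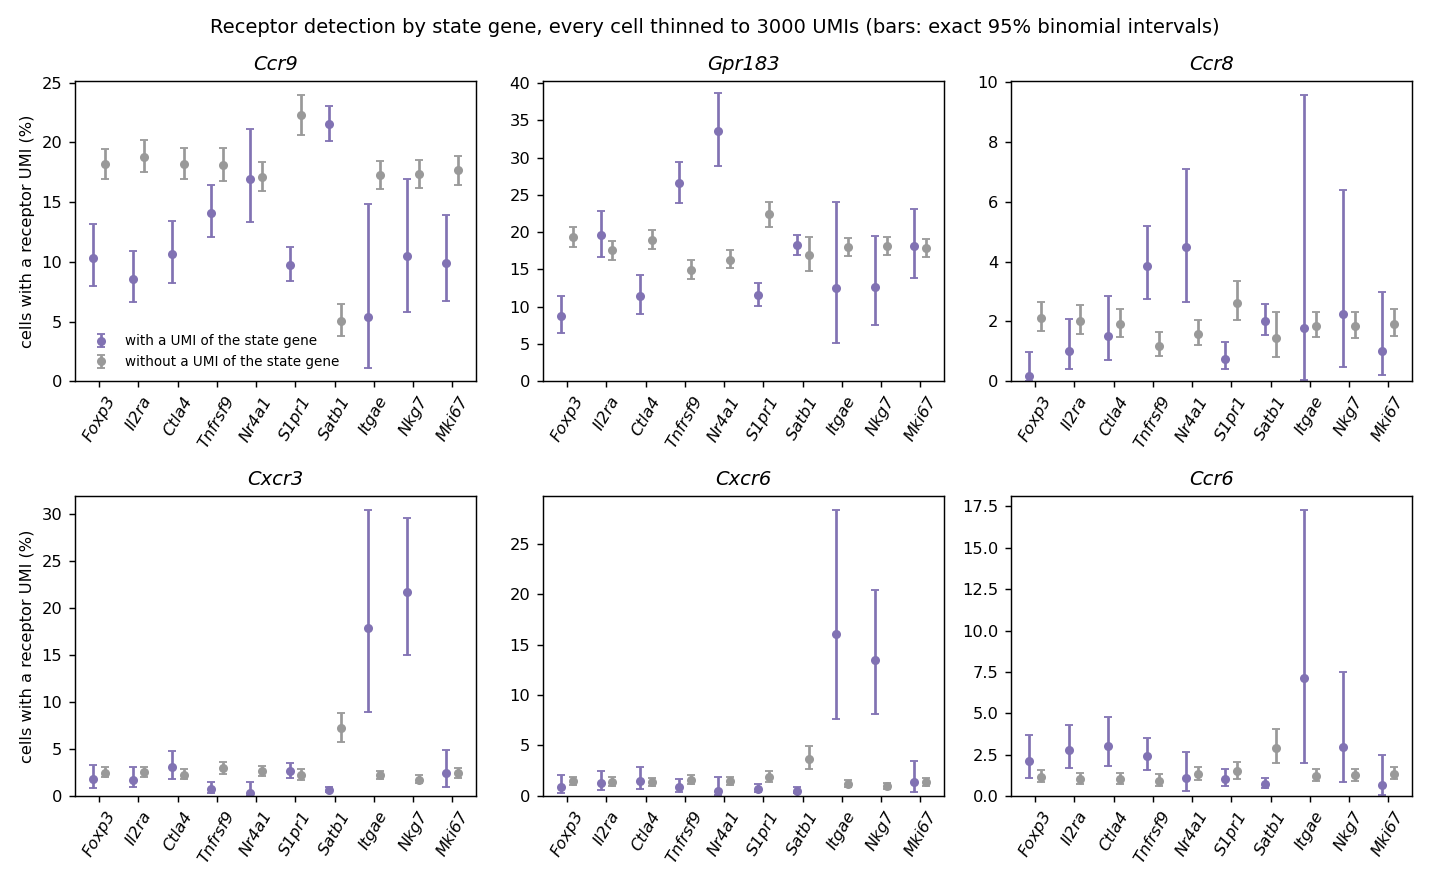
Percent of cells with a receptor UMI among cells with (purple) and without (grey) a UMI of each of 10 state genes, all cells thinned to 3000 UMIs, with exact 95% binomial intervals, for Ccr9, Gpr183, Ccr8, Cxcr3, Cxcr6 and Ccr6. Ccr9 reaches 21.5% with Satb1 and 5.03% without, and Cxcr3 21.6% with Nkg7 and 1.75% without.

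Summed over both mice, the B or plasma list was also lower with the remaining members. It summed to 92.2 CPM in Ccr4-positive against 458.0 CPM in Ccr4-negative cells, 46.3 against 459.5 CPM for Ccr8, 97.4 against 445.5 CPM for Ccr6 and 190.6 against 439.3 CPM for Cxcr5. In these negative cells it summed to 100.2 to 103.9 CPM in the Lta-/- mouse and 756.3 to 792.7 CPM in the Foxp3eGFP mouse. Its part in these values was not tested.

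Free RNA in droplets can give a UMI in a cell that does not express the gene, and no cell type that should lack these receptors was identified. The lowest shares at equal depth among the state-gene groups were 5.03% for Ccr9 (cells without Satb1), 8.73% for Gpr183 (cells with Foxp3), 0.178% for Ccr8 (cells with Foxp3) and 0.265% for Cxcr3 (cells with Nr4a1). The part of free RNA in these shares was not tested. Erythroid genes, a measure of free RNA from blood, summed to 0.0711 CPM in Lta-/- cells and 0.0666 CPM in Foxp3eGFP cells.

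Most cells carried at most 1 of the receptors. Of the 4453 cells, 47.0% had a UMI of 0 members, 36.6% of 1, 12.6% of 2, 3.26% of 3 and 0.606% (27 cells) of 4 or more. The median depth grew with this number, at 5049, 5644, 6365, 8191 and 15292 UMIs per cell. Pairs were therefore compared with the number of cells that the shares of both receptors give within 10 strata of depth. Of 36 pairs, 27 had an expected number of at least 5. Observed over expected had its interval below 1 for 4 pairs and above 1 for 6, and the interval held 1 for 17. All 36 pairs were present in at least 1 cell, some of them in 1 or 2, and doublets within a genotype and free RNA can give such cells. At equal depth 7 pairs had 0 cells, with 0.275 to 1.29 expected. Without other-lineage cells, Ccr8 with Cxcr5 (0 cells against 1.86 expected) and Ccr8 with Cxcr6 (0 against 3.37) were not found together.

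The pairs below expectation all involved Ccr9. Ccr9 and Cxcr3 were found together in 9 cells against 36.5 expected, a ratio of 0.246 (0.113 to 0.468), with 5 against 22.6 in Lta-/- cells and 4 against 13.7 in Foxp3eGFP cells. At equal depth 1 cell had both, against 16.9 expected. Ccr9 with Cxcr5 (3 cells against 11.1), Ccr9 with Ccr6 (15 against 26.4) and Ccr9 with Cxcr6 (16 against 26.6) were the others. Ccr9 and Cxcr6, neighbours on chromosome 9, thus shared cells less often than their shares give, at a ratio of 0.601 (0.344 to 0.976). Without other-lineage cells the ratio of that pair was 0.543 (0.248 to 1.03).

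Of the 6 pairs above expectation, 4 held Ccr4. Ccr4 and Ccr9 met in 95 cells against 50.4 (1.89, 1.53 to 2.31), with 49 against 24.1 in Lta-/- and 46 against 25.8 in Foxp3eGFP cells. Ccr4 and Gpr183 met in 102 cells against 57.4 (1.78, 1.45 to 2.16), and Ccr8 and Gpr183 in 92 against 59.9 (1.54, 1.24 to 1.88). Nearly equal numbers of cells with Ccr8 and Gpr183 came from each mouse, 46 against 28.3 expected in Lta-/- and 46 against 31.1 in Foxp3eGFP cells. Ccr4 and Ccr8 (19 against 10.2) and Cxcr3 and Cxcr4 (15 against 8.08) were smaller pairs.

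Ccr4 and Cxcr6 met in 26 cells against 5.34 (4.87, 3.18 to 7.13), with 10 against 2.93 in Lta-/- and 16 against 2.76 in Foxp3eGFP cells. Cxcr3 and Cxcr6 met in 32 cells against 3.53 expected, a ratio of 9.06 (6.20 to 12.8), and 16 of these cells came from each mouse. That expected number is under 5, so the pair is not among the 27. It was the largest ratio of the 36, it was 16 against 1.36 at equal depth, and without other-lineage cells it was 24 against 2.37. Of Cxcr6-positive cells 31.4% carried Cxcr3, and 20.6% of Cxcr3-positive cells carried Cxcr6. Of Ccr4-positive cells 49.2% also carried Ccr9, 52.8% Gpr183 and 13.5% Cxcr6.

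**Figure D4:**
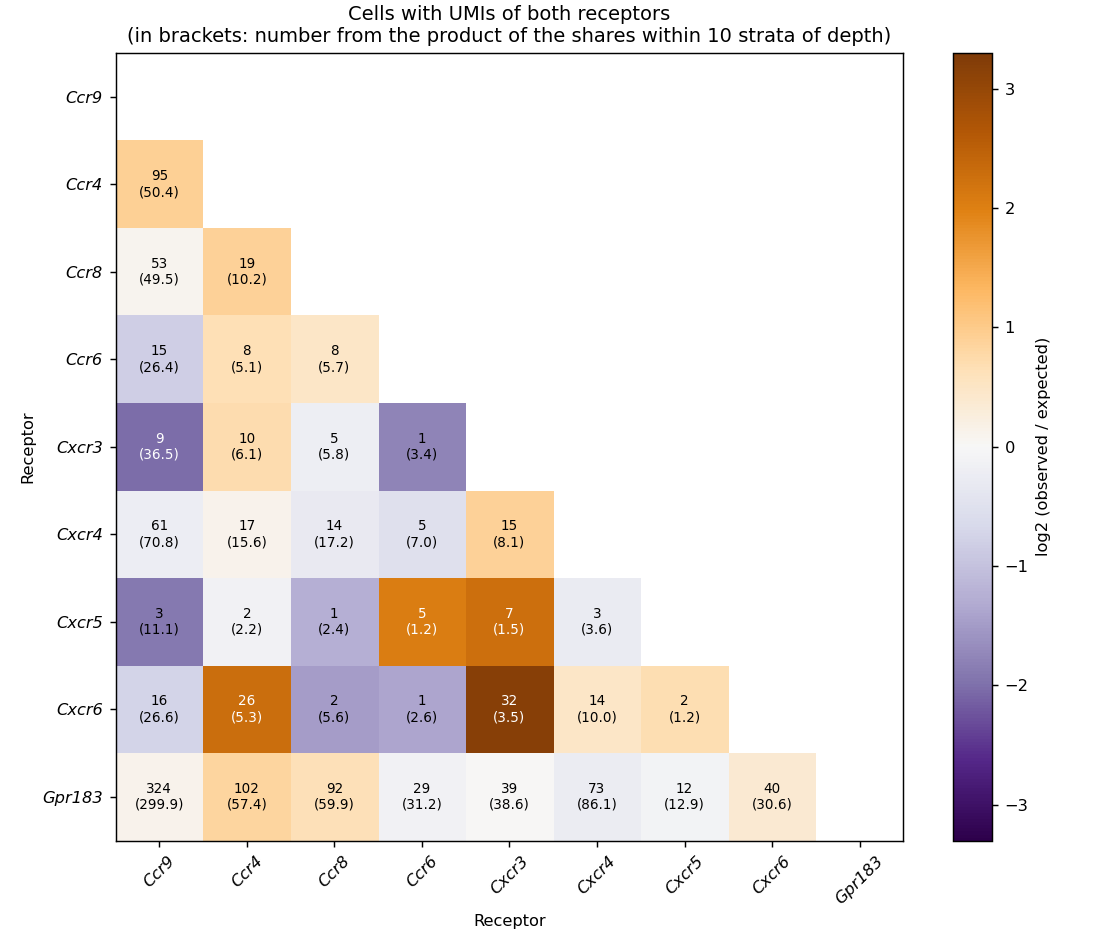
Number of cells with UMIs of both receptors for the 36 pairs, with the number expected from both shares within 10 depth strata in brackets; the colour is log2 of observed over expected. Ccr9 with Cxcr3 stands out below (9 against 36.5) and Cxcr3 with Cxcr6 above (32 against 3.53).

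Ccr9 and Gpr183, the most abundant members, met in 324 cells against 299.9 expected (1.08, 0.966 to 1.20), an interval that holds 1. The cells with one but not the other nonetheless differed in state. Gpr183 without Ccr9 was found in 849 cells (395 Lta-/- and 454 Foxp3eGFP, median 6222 UMIs) and Ccr9 without Gpr183 in 761 (373 and 388, median 5533 UMIs). Of all genes 13.5% were called between them (6.22% higher, 7.26% lower in the Gpr183 cells). In the agonist-signalled list 7 of 11 genes were higher in the Gpr183 cells and 0 lower, with a median of 1.33 and 1.17 at equal depth. Gadd45b (2.92), Nr4a3 (2.40), Egr3 (1.94), Nfkbid (1.89), Nr4a1 (1.36) and Tnfrsf9 (1.33) were higher.

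Il2ra was also higher in the Gpr183 cells (0.85, 0.63 to 1.06; 1.07 in Lta-/-, 0.68 in Foxp3eGFP), and so were 3 of 10 mature Treg genes, Tnfrsf4 (1.21), Nrp1 (1.00) and Lrrc32 (0.69), whereas Gpr83 was lower (-0.83) and Ctla4 (-0.38) was not called. Nrp1 was at 1.81 in Lta-/- cells and 0.24, short of 1.5-fold, in Foxp3eGFP cells. Satb1 (-1.12), Tox (-0.70) and Id2 (-0.97) were lower in the Gpr183 cells, which is to say higher in the Ccr9 cells. Cxcr3 had 75 UMIs in the Gpr183 cells and 8 in the Ccr9 cells (2.93, 1.88 to 4.20), and Ccr8 had 71 and 26 (1.15, 0.49 to 1.86). All 6 double-positive genes with enough UMIs were lower in the Gpr183 cells (median -1.81), and Lyz2, a myeloid gene, was higher (241 UMIs against 2; 6.62, 4.75 to 9.67). Of 5 B or plasma genes 4 were lower in the Gpr183 cells (median -7.01, but 0.50 at equal depth), and both NK or ILC genes with enough UMIs were higher (median 1.55). The part of these in the other values was not tested, and without other-lineage cells Gadd45b was at 2.88 and Satb1 at -1.12.

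Between the genotypes, 2 of the 8 members with enough UMIs were called: Cxcr3 was higher and Cxcr4 lower in Lta-/- cells. The same rule called 5.24% of 10709 genes, 2.41% higher and 2.83% lower. Cxcr3 had 204 UMIs (14.5 CPM) in Lta-/- cells, against 110 (7.33 CPM) in Foxp3eGFP cells, a log2 ratio of 0.99 (0.64 to 1.33). It was present in 4.41% of Lta-/- cells against 2.54% of Foxp3eGFP cells, at 2.06 and 1.96 UMIs per positive cell. The genotypes thus differed in the share of positive cells more than in the count per positive cell. Cxcr4 had 131 UMIs (9.32 CPM) in Lta-/- cells, against 223 (14.9 CPM) in Foxp3eGFP cells, a log2 ratio of -0.67 (-0.995 to -0.35). It was present in 4.28% of Lta-/- cells against 7.06% of Foxp3eGFP cells. These values compare 1 mouse with 1 mouse, so differences between genotypes and between mice cannot be told apart.

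The Cxcr3 difference passed the call in the cells with neither Foxp3 nor Il2ra transcripts, which had 160 UMIs in Lta-/- against 67 in Foxp3eGFP cells (1.24, 0.82 to 1.68; 5.78% of all genes called). In Foxp3 only cells there were 24 UMIs in Lta-/- against 27 in Foxp3eGFP cells (-0.13, -0.99 to 0.72), where the share of all genes called was 6.73%. Cells with both transcripts (8 against 5 UMIs; 1.15, -0.65 to 3.11) and Il2ra only cells (12 against 11; 0.57, -0.74 to 1.89) had too few UMIs for a call. The difference between these classes was not tested. Lta-/- cells held more of the NK or ILC list (41.1 CPM against 25.4 CPM in Foxp3eGFP cells). Without cells that carried other-lineage genes Cxcr3 had 160 UMIs in Lta-/- against 80 in Foxp3eGFP cells (1.11, 0.72 to 1.52), and at equal depth 114 against 52 (1.12). The Cxcr4 ratio was -0.58 (-0.97 to -0.20) without other-lineage cells, short of the call. The double-positive list, which was high in Cxcr4-positive cells, summed to 106.7 CPM in Lta-/- and 147.1 CPM in Foxp3eGFP cells, and the gamma-delta T list to 37.9 and 76.0 CPM. The B or plasma list differed more, at 101.7 CPM in Lta-/- and 749.3 CPM in Foxp3eGFP cells, although at least 2 of its genes were present in 3.83% of Lta-/- and 2.67% of Foxp3eGFP cells.

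**Figure D5:**
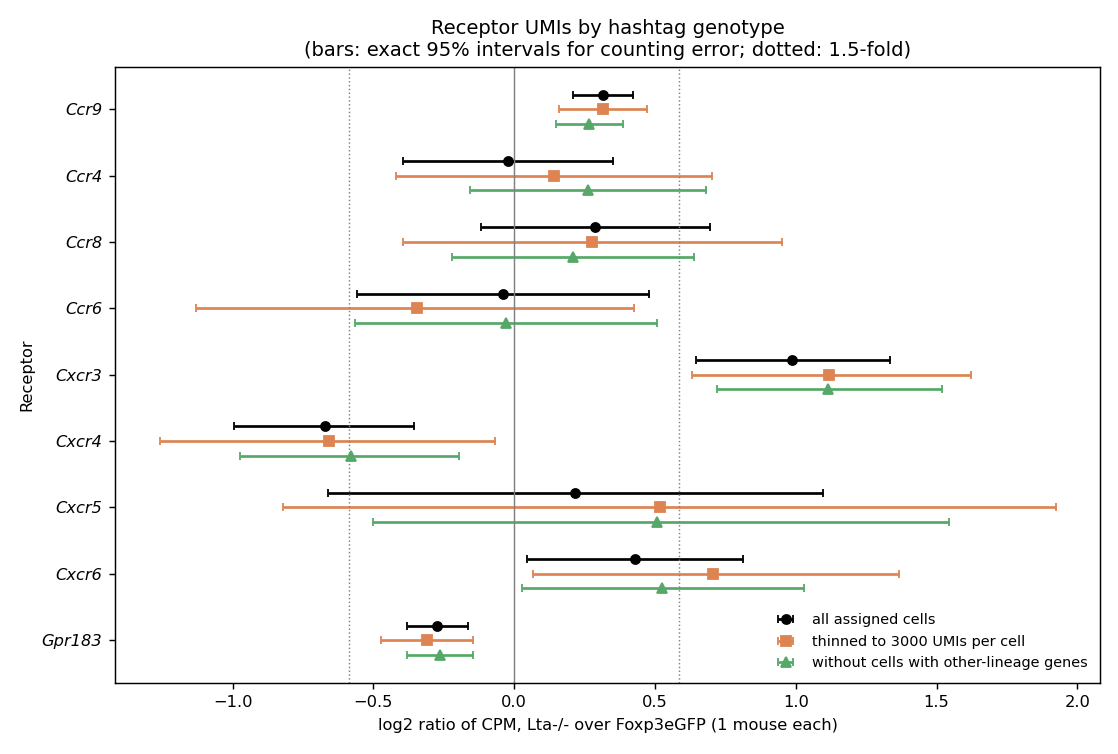
Log2 ratio of CPM, Lta-/- over Foxp3eGFP, for the 9 receptors over all assigned cells, after thinning to 3000 UMIs and without cells that carry other-lineage genes, with exact 95% intervals; dotted lines mark 1.5-fold. Cxcr3 lies beyond the upper line in all 3 settings (0.99, 1.12 and 1.11), and Cxcr4 crosses to -0.58 in the last.

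The abundant members differed less. Ccr9 had 1592 UMIs (113.3 CPM) in Lta-/- against 1366 (91.0 CPM) in Foxp3eGFP cells, a ratio of 0.32 (0.21 to 0.42), and Gpr183 had 1233 (87.7 CPM) against 1592 (106.1 CPM), a ratio of -0.27 (-0.38 to -0.17). Neither reached 1.5-fold. Within classes the direction of Ccr9 was not uniform: in Il2ra only cells it had 68 UMIs in Lta-/- against 162 in Foxp3eGFP cells (-0.81, -1.24 to -0.40), and in neither cells 1433 against 1082 (0.39, 0.28 to 0.51). The shares of all genes called were 7.99% in Il2ra only and 5.78% in neither cells. Gpr183 in cells with both transcripts had 55 UMIs in Lta-/- against 151 in Foxp3eGFP cells (-0.99, -1.46 to -0.53), where 7.52% of all genes were called. The shares of Gpr183-positive cells in that class were close, at 19.2% (33 of 172) in Lta-/- and 20.6% (45 of 218) in Foxp3eGFP cells. The highest cell held 5 UMIs in Lta-/- and 21 in Foxp3eGFP cells, a spread between cells that the interval does not cover. Ccr4 (-0.021), Ccr6 (-0.038), Ccr8 (0.29) and Cxcr6 (0.43, 0.05 to 0.81) were not called, although Cxcr6 passed the call at equal depth, with 56 UMIs in Lta-/- against 34 in Foxp3eGFP cells (0.71, 0.07 to 1.37). Cxcr5 had 25 and 23 UMIs.

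Rgs1, a brake on receptor signalling, was higher in the transcript-positive classes, whereas no gene of the pathway lists was called between genotypes. That count of 0 covers the 7 other chemokine and migration receptors, 2 ligands and oxysterol enzymes and 20 receptor signalling genes with enough UMIs, beside 5.24% of all genes called. Ccr7 differed by -0.060 and S1pr1 by 0.011. Among classes, Rgs1 was 3.63 higher in cells with both transcripts than in neither, 1.80 higher in Foxp3 only and 2.25 higher in Il2ra only cells. It was the 1 signalling gene of 20 called in both and in Foxp3 only cells, and it was 1 of 2 called, with Rgs16 (0.88), in Il2ra only cells, beside 21.8%, 21.5% and 15.1% of all genes called. The signalling genes were thus called less often than all genes in both and in Foxp3 only cells, whereas 2 of 20 is near the share of all genes in Il2ra only cells. With 20 genes these differences were not tested. The transcript-positive classes held fewer cells than the genotypes, so the shares of all genes called are not like for like between these comparisons. Of the 7 receptors, 3 were higher and 1 lower in both, 4 and 0 in Foxp3 only, and 2 and 1 in Il2ra only. S1pr1 was 1.08 higher in both and 1.25 in Foxp3 only cells, opposite in direction to Ccr9, and Ccr2 was lower in both (-2.42). P2ry10 was higher in all 3 classes (1.78, 1.13 and 0.80). Of the ligands, Cxcl10, the Cxcr3 ligand, had 29, 23 and 49 UMIs in both, Foxp3 only and Il2ra only cells against 35 in neither, at log2 ratios of 2.70, 2.29 and 2.81. Ccl25, the Ccr9 ligand, was lower in both (-0.61). Whether these ligand transcripts came from the sorted cells themselves or from free RNA was not tested.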

How the data were processed

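Gene expression and hashtags were measured by 10x Genomics 3' single-cell sequencing, per the labels' protocols. The authors deposited 1 matrix of raw UMI counts per gene and barcode, with no normalization applied. The submitters' processing notes list Cell Ranger 6.0.1 with the builds mm10 and GRCm38. How reads were aligned, annotated and assigned to cells was not given in the sources used here. All columns of per-sample values were used, with 0 left out.

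Cells passed with a minimum of 500 detected genes and a mitochondrial share no higher than 10%. A cell was assigned to a genotype when 1 hashtag made up at least 80% of at least 10 hashtag counts. The median was 3501.5 own against 42 other counts in Lta-/- cells and 5096 against 30 in Foxp3eGFP cells. The antibody numbers of the feature names differ from those in the labels' protocols, so genotype was taken from the feature names, and Lta served as the check. Doublets were removed only by hashtag, and no caller was run, so doublets within a genotype remain. No clustering was done. Thinning to 3000 UMIs left out 162 Lta-/- and 147 Foxp3eGFP cells.

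Raw UMIs were summed over cells and scaled to CPM (per 1000000). Ratios have exact conditional binomial intervals, shares Clopper-Pearson intervals and counts Poisson intervals, all at 95%; a group with 0 UMIs was set to 3 counts. The calculation was tested on simulated data. A call needed 1.5-fold and 50 UMIs in both groups together. A cell carried other-lineage genes when it had at least 2 genes of 1 such list. Genes outside the lists were named by the 6 largest and 4 smallest ratios among genes with at least 100 UMIs, a UMI in 10% of cells of the higher side and 1.5-fold in both mice. Receptors needed 30 positive cells. The members, lists and tests were chosen with earlier results of these data known. The split of Gpr183 and Ccr9 cells and the share of list genes beside the results were chosen after seeing the data. Promoters and positions came from RefSeq GRCm38.p6. Alternatives covered cell and hashtag filters, depth, weighting, single mice, classes and left-out cells. Software was Python 3.11.15, numpy 2.4.6, scipy 1.17.1, pandas 2.3.3 and matplotlib 3.10.9.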

Additional observations from a re-analysis of the deposited data

Results flagged for a closer look

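Cells with both hashtags, which entered no comparison, carried several receptors more often. Of these 185 cells, 37.3% had UMIs of at least 2 members, at a median of 10532 UMIs per cell, beside 16.4% of the 4453 cells with 1 hashtag, at a median of 5471. Ccr9 and Gpr183 were found together in 34 of the cells with both hashtags and in 324 of the cells with 1. They were singled out because they are a signal in cells outside the comparisons. The part of depth in this difference was not tested.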

How the results depend on the processing

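Counts of called results moved by less than 1.5 times for classes (17 called; 14 to 20), lists (38; 31 to 51) and receptors present in at least 2% of cells (8; 7 to 8). The number of called genotype ratios, 2 for Cxcr3 and Cxcr4, was 1 without other-lineage cells (Cxcr3), 1 within cells with both transcripts (Gpr183, not called over all cells, whereas Cxcr3 and Cxcr4 lacked the UMIs there) and 0 within Foxp3 only cells (0 to 3 over all alternatives). The 10 pairs with an interval off 1 became 5 at equal depth, 5 in Lta-/- cells alone and 4 in Foxp3eGFP cells alone (4 to 11). Direction reversed for Cxcr3 between genotypes within Foxp3 only cells (-0.13), and for the proliferation list at equal depth in cells with Ccr9 (-0.56), Ccr4 (-0.089), Ccr8 (-0.32) and Cxcr6 (-0.87). It also reversed for the mature Treg list in Cxcr6-positive cells (0.033 with cells weighted equally, 0.046 at equal depth, -0.63 otherwise) and the innate-like T list in Gpr183-positive cells (-0.22 at equal depth, -0.0021 at 2 UMIs for a positive cell, 0.68 otherwise). The cause was not tested, except that thinning removes the depth difference by construction. Of single values, 184 of 204 class ratios, 98 of 117 genotype ratios and 95 of 100 pair ratios stayed within their main counting interval. List medians have no such interval, and 393 of 436 moved by no more than 1.5-fold without a reversal. Cxcr5 (48 UMIs) and Ccr6 (130 UMIs) rest on the fewest counts. No paired analysis was possible because each genotype is 1 mouse, and for the same reason no replicate could be left out.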
